A study of Homo sapiens with 4 samples.

Results

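The AP-1 family genes JUN, JUNB, JUND, FOS, FOSB, FOSL1, FOSL2 and BATF3 were followed through a comparison of H3K27ac, an acetylated form of histone H3 found at active promoters and enhancers. Each line of the authors' deposited table whose assigned gene was 1 of these 8 symbols was taken. All 8 genes were present, with 69 of the 91107 distinct regions, of which 8 had a distance of 0 to their gene and 61 were distal. The material was A375, an established human melanoma line kept in medium with serum, profiled by chromatin immunoprecipitation and sequencing. The labels describe 2 libraries from cells given 1 mM octanoate, a medium-chain fatty acid, for 48 hours and 2 from cells given its vehicle, isopropanol, for 48 hours. They name no genetic change and do not say whether the 2 libraries of a group came from separate cultures.

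AP-1 is a set of dimeric transcription factors built from basic leucine zipper proteins. JUN proteins pair with each other or with FOS proteins, whereas FOS proteins rely on a JUN partner, and the dimers bind the site TGACTCA or the related TGACGTCA. Growth factors, stress and MAP kinase signalling induce or activate the members within minutes to hours, and JUN is known to stimulate its own promoter. In melanoma, JUN and FOSL1 are known for their part in dedifferentiated and invasive states, and FOSL1 is a known target of MAP kinase signalling.

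Promoter sequences of JUN, JUND and FOS are given first, because the region at distance 0 covers each of them and because JUN is known to stimulate its own promoter. JUN and FOS were set by rule, and JUND was added after its sequence was read because it holds TGACGTCA. Each line is the 250 bases before the RefSeq start in GRCh38.p14, written 5′ to 3′ on the strand of the gene, with capitals marking TTACCTCA, TGACATCA, TGACGTCA, CCAAT or TATAAA. The lines lie at chr1:58784048-58784297 (minus strand), chr19:18281623-18281872 (minus strand) and chr14:75278578-75278827 (plus strand).
JUN: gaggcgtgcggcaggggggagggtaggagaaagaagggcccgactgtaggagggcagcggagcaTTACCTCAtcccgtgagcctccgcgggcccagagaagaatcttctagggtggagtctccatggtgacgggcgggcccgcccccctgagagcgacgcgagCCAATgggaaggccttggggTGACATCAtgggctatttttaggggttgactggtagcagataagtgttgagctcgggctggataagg
JUND: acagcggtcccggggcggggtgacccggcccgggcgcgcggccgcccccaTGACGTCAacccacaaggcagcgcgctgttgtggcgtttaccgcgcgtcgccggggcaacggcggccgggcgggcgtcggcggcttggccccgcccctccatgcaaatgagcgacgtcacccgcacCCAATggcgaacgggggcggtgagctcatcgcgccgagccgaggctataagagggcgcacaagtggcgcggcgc
FOS: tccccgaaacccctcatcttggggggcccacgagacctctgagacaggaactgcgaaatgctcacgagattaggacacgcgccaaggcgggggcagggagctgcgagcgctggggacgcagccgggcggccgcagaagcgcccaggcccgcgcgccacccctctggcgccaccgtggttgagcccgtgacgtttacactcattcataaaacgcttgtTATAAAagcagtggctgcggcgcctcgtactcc

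Motifs were searched on both strands, and none of the marked matches overlapped another. The JUN promoter held TGACATCA, which began 67 bases before the start, and TTACCTCA, which began 186 bases before it. These sequences occur in 2.37% and 0.644% of the 35116 RefSeq promoter windows of this length. JUND held TGACGTCA at 200 bases before the start, which 1.65% of windows hold. FOS held TATAAA at 33 bases before the start, as did JUNB at 31 and FOSB at 30, and 10.7% of windows hold it. TGACTCA was in 4.20% of windows and in none of the 6 members' windows in the RefSeq table, which were JUN, JUNB, JUND, FOS, FOSB and FOSL2. The core of the serum response element, present in 1.16% of windows, and GGGCGG, in 42.6%, were also searched. GGGCGG was in JUN, JUND, FOS, FOSB and FOSL2. The serum response element core was in none of the 6 windows. Sequence further than 250 bases before a start was not searched, so an element there would be missed, also at FOS. A match is a run of letters and not a measured binding site.

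The authors' deposited table gives 1 comparison of the 4 libraries: for each region a mean level in normalized units, a log2 fold change with its standard error, and p-values. It holds no value per library, so the depth is unknown, the spread between replicates cannot be shown, and the standard error is the authors' model's own. Its header does not name the numerator, so changes are called positive or negative, not gains or losses under octanoate. An adjusted p-value was computed for 36436 regions with a mean level of at least 18.4, called tested regions here, and 608 of these (1.67%) were under 0.05 and are called changed regions. Among the start regions 0.86% were changed and among distal ones 1.97%. The median log2 fold change of tested regions was 0.32, and 87.3% were positive. Regions at distance 0 were present at 6 of 8 melanoma or neural crest markers, with mean levels from 55.2 at S100B to 774 at SOX10, and absent at MLANA and TYR. They were absent at all 3 keratinocyte, all 3 leukocyte and both endothelial markers examined, and present at 2 of 3 fibroblast markers with levels of at most 78.9.

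Across the AP-1 genes, 3 of the tested regions of the authors' deposited table passed the threshold, all with positive fold changes. These 3 were the start region of BATF3 and distal regions of JUN 95.8 and 123 kb upstream. Of the 69 regions, 38 were tested, so that 3 of 38 were changed beside the 1.67% of all tested regions. The fold change itself had a positive sign in all 38 in the authors' deposited table, beside 87.3% of all tested regions, and 32 of 38 lay above the median of all tested regions. The median over the 38 was 0.49 (95% interval over regions 0.40 to 0.54), from 0.046 at a distal BATF3 region to 1.08 at the BATF3 start. An unadjusted p-value under 0.05 was given in the authors' deposited table for 16 of the 38, all positive, beside 18.4% of all tested regions. The 38 regions come from the same 4 libraries and 15 of them from JUN, so they are not independent. The interval treats them as if they were and does not measure the spread between libraries. Without JUN the median was 0.45.

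**Figure D1:**
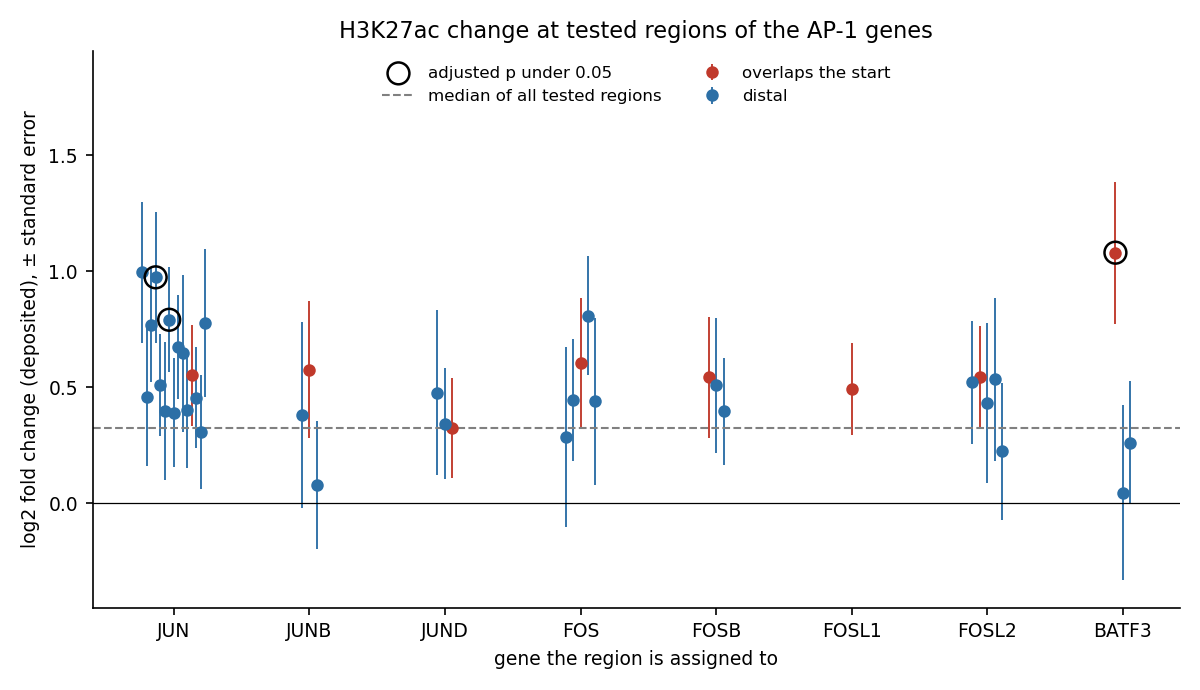
Deposited log2 fold change with its standard error (vertical axis) for the 38 tested regions, by assigned gene (horizontal axis), with start regions in red, distal regions in blue and regions with an adjusted p-value under 0.05 ringed. All points lie above 0, 32 of 38 lie above the dashed median of 0.32, and the rings are on JUN (2) and BATF3 (1).

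None of these 3 calls held in a pair of alternative readings of the same values. With the common median of 0.32 subtracted, 0 of the 38 regions passed, as against 0.124% of all tested regions. An unadjusted centred p-value under 0.05 was found for 4 of the 38, all above the median, beside 5.7% of all tested regions. With adjustment over all 91107 distinct regions, under which 0.274% passed, 0 members did. The adjusted p-values were then 0.0891 for the BATF3 start and 0.0915 and 0.0989 for the 2 JUN regions.

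For the other 31 regions, which were weaker, the authors' deposited table holds no computed adjusted p-value. Of these, 22 had a positive and 9 a negative fold change, which is near the 64.6% positive among all regions without an adjusted p-value. The authors' deposited table gave them standard errors with a median of 0.57, against 0.27 for the tested members, and their fold changes ran from -0.95 to 1.34. Tested members also had high levels, and positive values become more frequent with level in the authors' deposited table. At a mean level of at least 100, 95.3% of 7591 regions were positive with a median of 0.31, and 15 of 15 member regions were positive with a median of 0.51. At that level 1 of the 15 was changed, beside 2.34% of all such regions, and 14 of the 15 lay above the median of all such regions.

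**Figure D2:**
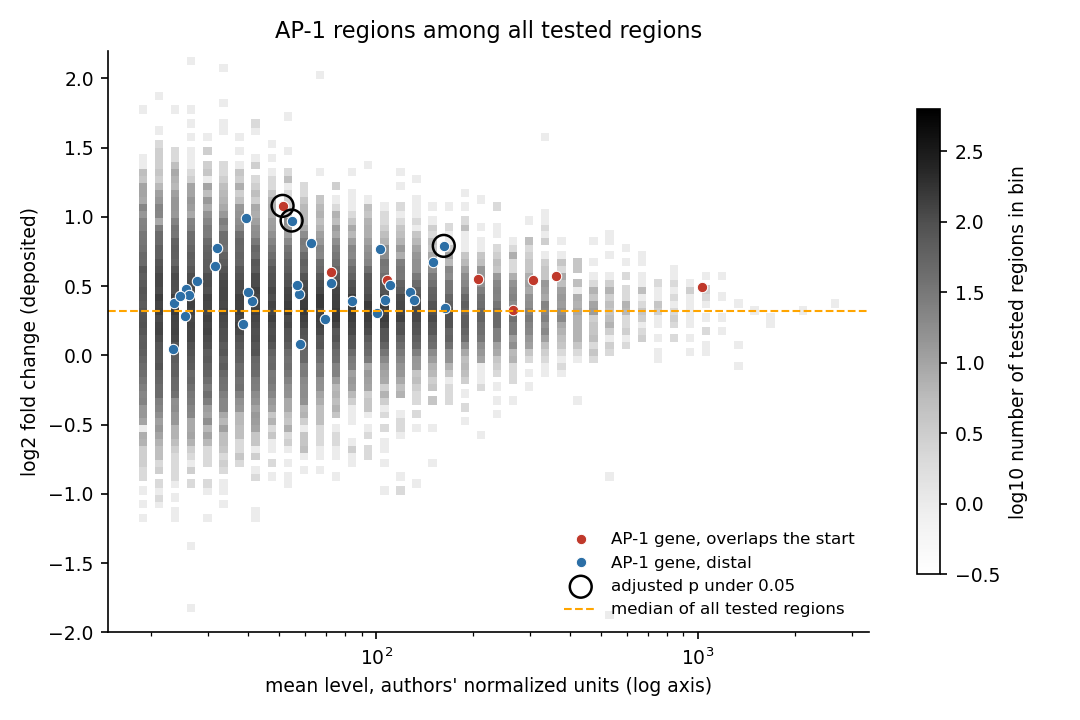
Deposited log2 fold change (vertical axis) against mean level in the authors' normalized units (horizontal log axis), with all tested regions as grey bins shaded by their number and AP-1 regions as points. AP-1 regions span the levels from about 23.4 to 1028, and their points lie mostly above the dashed median at each level.

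The regions over gene starts were examined as promoters. For the 7 members with distal regions, the deposited distances of each gene pointed to a single base, which lay inside the region at distance 0. For JUN, JUNB, JUND, FOS, FOSB, FOSL2 and BATF3 this base was within 281 bases of the RefSeq gene's start, taken for BATF3, whose strand was not in the table used, as the nearer end. A distance of 0 therefore means overlap with the start for these 7. The start region covered the whole of the short genes JUN, JUNB and JUND and also all of FOSL1, but 43.4% of FOS, 35.1% of FOSB, 24.1% of FOSL2 and 8.57% of BATF3.

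Levels at starts, compared per length, were highest for JUNB and lowest for FOS. The mean level per kb in the authors' deposited table was 52.2 for JUNB, 48.8 for JUND and 46.8 for FOSL1. It was 33.6 for JUN, 32.7 for FOSL2, 29.4 for FOSB, 26.0 for BATF3 and 18.4 for FOS. The median over all tested start regions was 25.8, so 7 of the 8 lay above it, and FOS, the inducible partner of JUN, lay below. The order of neighbours in this list cannot be judged, because the authors' deposited table gives no spread for a mean level. By total level, the FOSL1 region ranked 23rd among all distinct regions of the authors' deposited table.

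**Figure D3:**
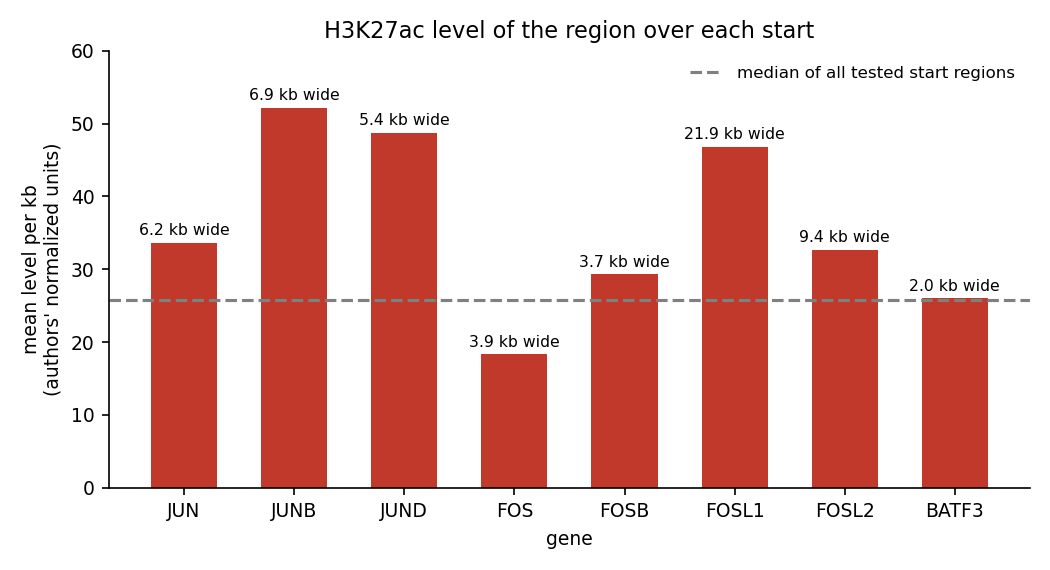
Mean H3K27ac level per kb in the authors' normalized units (vertical axis, from 0) of the region over each member's start, with its width written above the bar. JUNB, JUND and FOSL1 stand between 46.8 and 52.2, and FOS at 18.4 is the only bar under the dashed median of 25.8.

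At starts the fold change was positive in all 8 genes, and 7 of 8 exceeded the median of 0.35 of all tested start regions in the authors' deposited table. Positive values are the rule at starts, where 98.1% of tested regions have them. The median over the 8 was 0.55. 1 of the 8, BATF3, was changed, beside the 0.86% of all start regions, and 6 of the 8 had an unadjusted p-value under 0.05, beside 19.2%.

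JUN, the founding member and a strong activator, had by far the most regions. The authors' deposited table assigned it 28, against a median of 3 per gene, though 331 of 17301 genes had more. Of these 28 regions, 22 lay upstream, 5 downstream and 1 over the start, with distances up to 245822 bases, and 12 of the distal ones overlapped JUN-DT, the noncoding gene divergent from JUN. The start region (chr1:58780113-58786276), which holds the JUN promoter printed above, had a level of 207 in the authors' deposited table and a log2 fold change of 0.55 ± 0.22 (standard error; adjusted p-value 0.161). It was thus positive but not changed.

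The 2 changed regions of JUN both lay upstream. The first (chr1:58880109-58887132), 95782 bases from the start, overlapped JUN-DT and the noncoding LINC02777 and was the strongest distal region of JUN, with a level of 162. The authors' deposited table gave it a log2 fold change of 0.79 ± 0.23 (adjusted p-value 0.0372), a ratio of 1.73. The second (chr1:58907503-58911261), 123176 bases away, overlapped no RefSeq gene and had a level of 54.5 and by the authors' deposited table a value of 0.97 ± 0.28 (adjusted p-value 0.0403), a ratio of 1.96. Both adjusted p-values were close to the threshold. Just outside it were JUN regions at 240469 bases (1.00 ± 0.30, adjusted p-value 0.0542), 144876 bases (0.77 ± 0.25, 0.0714) and 60969 bases upstream (0.67 ± 0.23, 0.0881) in the authors' deposited table.

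In the authors' deposited table all 15 tested JUN regions were positive, from 0.31 to 1.00 with a median of 0.55. The 11 tested upstream regions had a median of 0.65 and the 3 tested downstream ones, with values of 0.31, 0.46 and 0.78, a median of 0.46. These ranges overlap, and the difference was not tested. Of the 15 regions, 9 had an unadjusted p-value under 0.05 in the authors' deposited table, against the 18.4% of all tested regions. Between the 2 changed regions lay others at 110571 and 117621 bases, with 0.40 ± 0.30 and 0.51 ± 0.22 in the authors' deposited table.

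**Figure D4:**
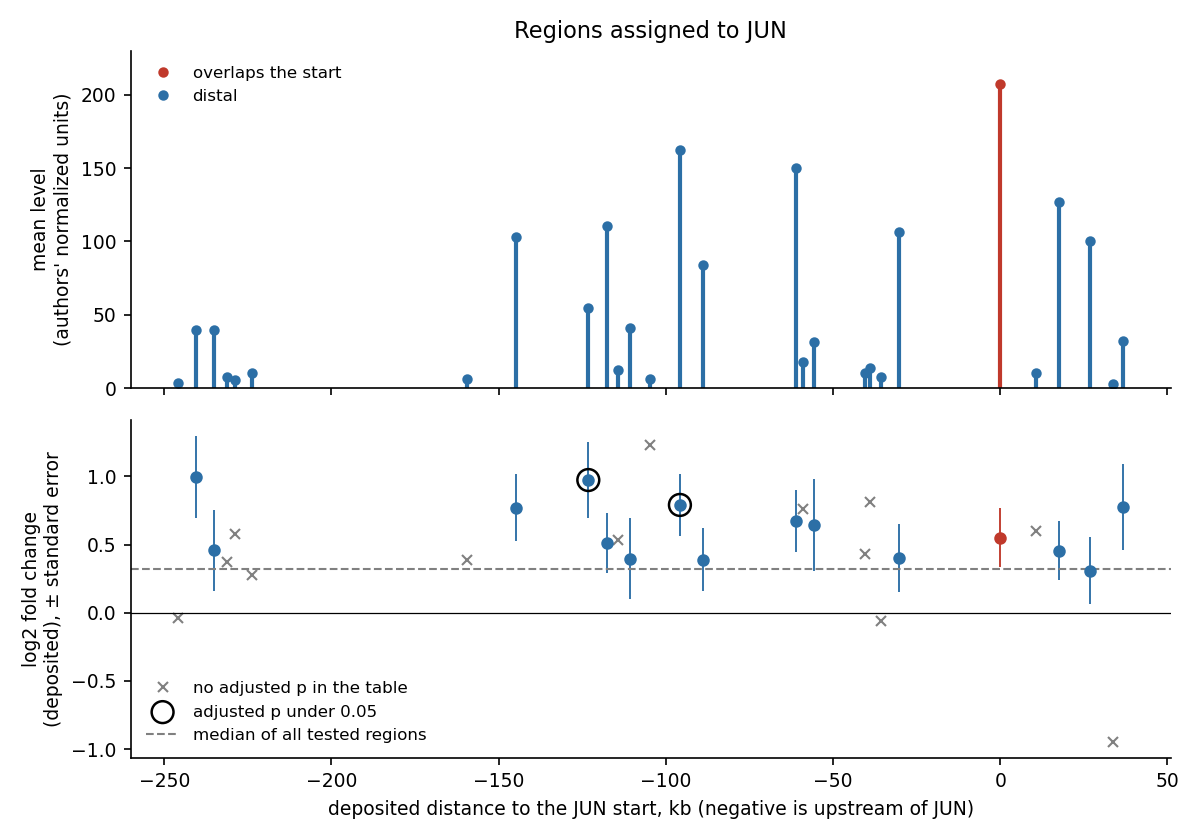
Mean level (upper panel, authors' normalized units) and deposited log2 fold change with its standard error (lower panel) of the 28 regions assigned to JUN, against deposited distance to the JUN start in kb, negative upstream. The ringed points at 95.8 and 123 kb upstream have 0.79 and 0.97, and all 15 tested points lie above 0, while the crosses are regions without an adjusted p-value.

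JUN was also set beside its surroundings. Within 500 kb of the JUN start, 16 tested regions were assigned to other genes, and by the authors' deposited table they had a median of 0.095, with 9 positive and 0 changed. At an unadjusted p-value under 0.05 there were 2. Of all tested regions, 87.3% were positive, 1.67% changed and 18.4% under that p-value, so 0 changed among 16 says little. The median of tested regions of other genes was -0.060 within 250 kb (10 regions) and 0.074 within 1000 kb (29 regions), against 0.31 for chromosome 1. On the downstream side of JUN, 6 regions of MYSM1, a histone H2A deubiquitinase gene, had a median of 0.055 and 2 of OMA1, a mitochondrial protease gene, 0.12. The 5 regions of FGGY, the next assigned gene on the upstream side, had 0.54 in the authors' deposited table, like JUN itself. The windows were chosen after the values were seen, and the difference from JUN was not tested.

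JUNB and JUND, the other JUN proteins, had few regions. Of all tested regions, 1.67% were changed and 18.4% had an unadjusted p-value under 0.05. A count of 0 among 3 tested regions therefore says little. JUNB, which is often less activating than JUN, had 3 regions, all tested and 0 changed in the authors' deposited table, and 0 with an unadjusted p-value under 0.05. Its start region (chr19:12787900-12794819), with a level of 361, had 0.58 ± 0.30 (adjusted p-value 0.273). That standard error was the second largest among the 8 start regions of the authors' deposited table, after BATF3, although its level was the second highest. The region 4362 bases below it, which overlapped HOOK2, had 0.080 ± 0.27, and the region 4175 bases above it 0.38 ± 0.40. JUND, the most constitutively expressed of the family, had 5 regions, of which 3 were tested and 0 changed, with 0 at an unadjusted p-value under 0.05. Its start region (chr19:18278069-18283506) had 0.33 ± 0.21 by the authors' deposited table (adjusted p-value 0.373), next to the median of 0.32 of all tested regions, at a level of 265. The strong region 8576 bases upstream, with a level of 163, had 0.34 ± 0.24, and the one at 16659 bases 0.48 ± 0.36.

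None of the 4 FOS genes had a changed region in the authors' deposited table among 14 tested. With 1.67% of all tested regions changed, 0 among 14 says little. An unadjusted p-value under 0.05 was given for 6 of the 14, beside 18.4% of all tested regions. All 14 were positive, beside 87.3% of all, from 0.23 to 0.81, with a median of 0.50. FOS, the immediate early gene, had 11 regions and 5 tested. Its start region (chr14:75276365-75280303), which holds the FOS promoter printed above, had 0.60 ± 0.28 (adjusted p-value 0.227) at a level of 72.4 in the authors' deposited table. The region 18351 bases upstream (chr14:75255878-75260423) came nearest to the threshold of all FOS family regions, with 0.81 ± 0.26 and an adjusted p-value of 0.0703. On the other side, regions at 14682 and 35878 bases had 0.45 ± 0.26 and 0.29 ± 0.39, and the standard-error ranges of all 5 tested FOS regions overlapped.

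FOSB, a further immediate early member, had 4 regions of which 3 were tested. Its start region (chr19:45466854-45470515) had 0.54 ± 0.26 by the authors' deposited table (adjusted p-value 0.244), and the distal ones at 10686 and 16533 bases 0.51 ± 0.29 and 0.40 ± 0.23. The last of these, which overlapped the DNA repair gene ERCC1, was the strongest FOSB region, with a level of 131 against 108 at the start.

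FOSL1, which encodes FRA1, had a single region of 21943 bases (chr11:65886032-65907975) with a level of 1028 in the authors' deposited table. The same region was listed with CCDC85B and FIBP, both at distance 0, so its level and change cannot be assigned to FOSL1 alone. Its log2 fold change was 0.49 ± 0.20, with the smallest standard error among the members and an adjusted p-value of 0.170.

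FOSL2, which encodes FRA2, had 13 regions and 5 tested. The start region (chr2:28389387-28398746), 9359 bases wide with a level of 306, had 0.54 ± 0.22 by the authors' deposited table (adjusted p-value 0.171). A region 13441 bases downstream, which lay over the FOSL2 gene itself, had 0.52 ± 0.27, and the region 49085 bases upstream 0.23 ± 0.30. The 4 tested distal FOSL2 regions had a median of 0.48.

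BATF3, a small basic leucine zipper protein that pairs with JUN and is known from dendritic cells and lymphocytes, had the largest fold change among the tested regions of the family. Its start region (chr1:212698690-212700654), the narrowest of the 8 at 1964 bases with a level of 51.1, had 1.08 ± 0.31 on the log2 scale of the authors' deposited table, a ratio of 2.11 (adjusted p-value 0.0362). The 2 tested distal regions, 27811 and 30676 bases away, had 0.046 ± 0.38 and 0.26 ± 0.27, both below the median of all tested regions. The untested region on the other side of the start, at 21836 bases, had -0.48 ± 0.48. The difference between the start and the distal regions of BATF3 was not tested. Within 500 kb, 26 tested regions of other genes had a median of 0.32 in the authors' deposited table and a highest value of 0.71. Of the 26, 0 were changed and 3 had an unadjusted p-value under 0.05, beside 1.67% and 18.4% of all tested regions.

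The surroundings of the other members differed in level of change. Of all tested regions 1.67% were changed, and of the family's own tested regions 3 of 38. Within 500 kb of FOSB, 57 tested regions of other genes had a median of 0.54 in the authors' deposited table with 4 changed, against 0.51 for FOSB. Around JUND, 63 such regions had 0.46 with 5 changed, against 0.34 for JUND, and around JUNB 50 had 0.35 with 0 changed, against 0.38. These 3 genes lie on chromosome 19, whose median was 0.41. Around FOSL1, 40 regions had 0.44 with 2 changed, against 0.49 for the FOSL1 region. For FOS the values were 0.37 over 18 regions around it and 0.45 for its own. Those around FOSL2 depended on the window, with medians of 0.40 within 250 kb and 0.13 within 500 kb, against 0.52 for FOSL2 in the authors' deposited table. None of these differences was tested.

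Lists of genes linked to AP-1 were read in the same way. The list called immediate early genes holds genes that mitogens or stress induce together with FOS and JUN. It also holds SRF, ELK1 and ELK4, factors at the serum response element. The list, of 20 genes, had 116 tested regions in the authors' deposited table. Of these, 6 were changed, all positive, or 5.17% beside 1.67% of all tested regions, and the median was 0.45. The changed regions lay 26087 bases from DUSP1, a MAP kinase phosphatase (1.14 ± 0.26), and 49838 bases from IER5 (0.96 ± 0.23). KLF4 and KLF6, genes of zinc finger factors, were assigned regions 56713 bases (KLF4, 0.90 ± 0.23), 510720 bases (KLF4, 1.16 ± 0.32) and 42403 bases away (KLF6, 1.08 ± 0.28). The last lay 5848 bases from the orphan nuclear receptor gene NR4A2 (0.87 ± 0.25). None of these 6 calls held after the common median was subtracted, and 4 held with adjustment over all distinct regions of the authors' deposited table. All 6 were distal, and 87 of the 116 regions lay above the median of all tested regions in the authors' deposited table.

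Kinases upstream of AP-1, with the JUN-degrading ligase component FBXW7, were a list of 15 genes. They had 41 tested regions, with a median of 0.38 in the authors' deposited table. Of the 41 regions, 2 were changed (4.88%, beside 1.67% of all tested regions). Of these, the region 50967 bases from RPS6KA1, a kinase of the RSK family, had 0.97 ± 0.24. The dimer partners, such as the ATF and MAF proteins, were a list of 17 genes with 48 tested regions. Of the 48, 1 was changed, 8584 bases from MAFK (1.06 ± 0.30), or 2.08%. Their median was 0.24, under that of all tested regions. With the common median subtracted, 0 kinase and 0 partner regions passed, and 1 and 0 did with adjustment over all distinct regions of the authors' deposited table. The textbook AP-1 targets, such as the matrix metalloproteinases and PLAUR, had 77 tested regions beside 20 genes and 0 changed in the authors' deposited table, with 20 at an unadjusted p-value under 0.05 (26.0%, beside 18.4% of all). Their median of 0.32 equalled that of all tested regions to 2 decimals. The highest start region of this list, at the cytokine gene LIF, had 0.43 ± 0.21.

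**Figure D5:**
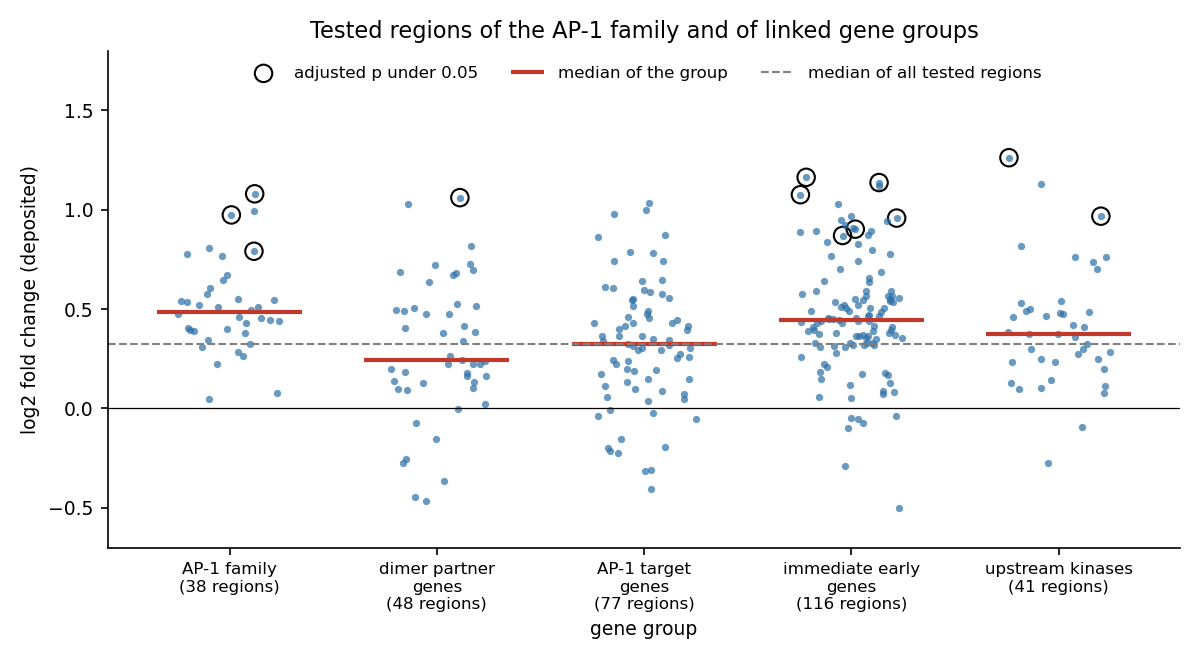
Deposited log2 fold change (vertical axis) of each tested region for the AP-1 family and the 4 linked gene groups (horizontal axis), with group medians as red bars and regions with an adjusted p-value under 0.05 ringed. The AP-1 family (0.49) and the immediate early genes (0.45) have medians above the dashed line at 0.32, the targets lie on it and the dimer partners (0.24) below it.

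Genes with at least as many tested regions as JUN were ranked by the share of those regions that were changed. Of 162 genes with at least 15 tested regions in the authors' deposited table, 127 had 0 changed. JUN had 2 of 15, or 13.3%, beside 1.67% of all tested regions. The other genes with the highest shares were HMGA2 (5 of 22), PTPN1 (3 of 22), NCKAP5 (2 of 15), ATP9A (2 of 16) and THSD4 (2 of 18). This ranks genes by small counts in a single comparison.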

How the data were processed

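The 4 H3K27ac libraries were grouped by the treatment in the labels. Per the submitters' processing notes, Trim Galore, cutadapt, FastQC, Bowtie2, Picard, MACS2, featureCounts, DESeq2 and bedtools 2.29.1 were used with build hg38. The authors deposited 1 table of a comparison, with the column names of DESeq2, per the file headers. Its mean level is a signal normalized by the authors. The log2 fold change and standard error are log2 values of the authors. The deposited score is their ratio, and its two-sided normal p-value equalled the deposited p-value to within 2.89e-15. The deposited adjusted p-value was recovered by Benjamini-Hochberg adjustment over the 36436 regions where it was under 1; a value of 1 was read as not computed.

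Computed here (Python 3.11.15, pandas 2.3.3, scipy 1.17.1) were distinct regions, level per kb, medians with order-statistic 95% intervals over regions, RefSeq overlaps, promoter motifs and the alternatives. RefSeq genes and promoters are of GRCh38.p14, the assembly of hg38. All 8 members matched a RefSeq gene and 6 a promoter, FOSL1 and BATF3 being without one. Exon annotation was not used here. Columns with values of a single library left out numbered 0. Tests across libraries with edgeR or limma could not be run on this table, so the authors' comparison was read, as the design provided. No set or list was tested.

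Members and gene lists were chosen with earlier results of these data known. Regions named were the starts, the changed regions, the strongest distal region and the extremes of fold change of each member, and further JUN, FOS, FOSL2 and BATF3 regions were named after their values were seen. For the lists, changed regions were named, and the strongest start for those with under 3. Of the motifs, TTACCTCA was added after the sequences were read. Centring and adjustment were tested on simulated data. Values of some single genes are not reported here.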

Additional observations from a re-analysis of the deposited data

How the results depend on the processing

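The 3 changed regions, 1 at a start and 2 distal, became 0, 0 and 0 at an adjusted p-value under 0.01, under adjustment over all distinct regions, and after centring on the median of tested regions or of all regions. Where a fold change of 1 or more on the log2 scale was also required, there was 1 in all and 0 among distal regions. At an adjusted p-value under 0.10 there were 7 in all and 6 distal. The share of all tested regions under 0.10 was not counted, so the rise to 7 cannot be judged against it. Counting lines gave 3. After centring, the medians became 0.16 for all members, 0.22 at starts and 0.13 for distal regions, and the share of positive regions 84.2%, by construction. Without centring, the share of positive regions was 100% of the tested members and, with no filter on level, 87.0% (60 of 69). Of all distinct regions, 67103 of 91107 were positive. Without any single member, or with another level or distance filter, the medians ran from 0.44 to 0.51 for all members, from 0.54 to 0.55 at starts and from 0.41 to 0.47 for distal regions. Centring turned the sign of 6 regions named: JUN at 26933 bases (-0.015), JUNB at 4362 (-0.24), FOS at 35878 (-0.038), FOSL2 at 49085 (-0.098) and BATF3 at 30676 (-0.062) and 27811 (-0.28). Changed regions after centring and after adjustment over all regions were 0 and 0 for the dimer partners and 0 and 1 for the kinases. They were 0 and 4 for the immediate early genes and 0 and 0 for the targets. In the same order, unadjusted centred p-values under 0.05 were found for 4 of 48, 3 of 41, 11 of 116 and 5 of 77 tested regions. Of all tested regions, 5.7% had such a value. The threshold of 0.10, centring on all regions and the list alternatives were chosen after seeing the data.

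No paired analysis was possible because libraries have no columns of their own in the table. Hence leaving out each library and other normalizations were not run, and what depth limits is unknown.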
